A study of Homo sapiens with 12 samples.

Results

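The extracellular matrix is the protein mesh that cells secrete around themselves, and this report describes 42 genes of it, of its receptors and of the enzymes that cut it, out of 22963 gene names with an expression value in each library. The members were chosen by name, with earlier results of these data known. They fall into 6 roles, namely 10 collagens, 6 laminins, 5 glycoproteins, 7 proteoglycans, 9 integrins and 5 proteases with their inhibitors. RNA was sequenced from 2 human hepatocellular carcinoma (HCC) cell lines in 4 groups of 3 libraries. PLC/PRF5 cells carried an empty lentiviral vector (Vector) or a lentiviral construct that expresses EGR1, a zinc-finger transcription factor, from the CMV promoter (EGR1). MHCC97H cells were parental (Mock) or labelled EGR1 knockout (EGR1_KO), a state made by CRISPR/Cas9, and the knockout lines of the study were single clones. All cells grew in the same serum-containing medium, without other treatment. The labels call the replicates biological but do not say whether they were separate cultures, so that the p-values measure the spread between these libraries, which may in part be technical.

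Collagens and laminins are secreted as trimers, and laminins, type IV collagen, nidogen, perlecan and agrin assemble into the basement membrane, the thin sheet on which epithelial cells rest. Integrins are receptors made of 1 alpha and 1 beta subunit that bind these proteins and couple them to the cytoskeleton. Matrix metalloproteinases cleave the matrix, and the tissue inhibitors of metalloproteinases (TIMPs) hold them in check. In the liver most fibrillar collagen is made by stellate cells and fibroblasts, while carcinoma cells make laminins, proteoglycans and the integrins that bind them.

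Expression was deposited as FPKM, a count of fragments per gene divided by transcript length and by the fragments mapped in that library. Differences are on the log2(FPKM + 1) scale, which understates the change of low genes, and were tested with limma over every gene whose FPKM averaged at least 1 in the 6 libraries compared, with Benjamini-Hochberg adjusted p and a threshold of 0.05. Most differences are also given after a correction for the GC content and length of transcripts, because these explained 18.5% of the variance of the differences across genes in PLC/PRF5 cells and 54.3% in MHCC97H cells. The correction removes any change that follows GC content, whatever its origin. With groups of 3 no exact permutation test gives a p under 0.1, the value that each pair of groups without overlap reaches.

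EGR1 itself was listed at 1.97, 1.43 and 2.03 FPKM in the Vector libraries and at 56.3, 50.2 and 52.2 FPKM in the EGR1 libraries, a ratio of means of 29.3. In MHCC97H it was listed at 20.2, 23.1 and 21.2 FPKM in Mock and at 35.2, 50.3 and 32.9 FPKM in the libraries labelled EGR1_KO. The mRNA of the targeted gene was thus above Mock in the libraries labelled knockout, by 0.83 on the log2 scale (SE 0.15, limma adjusted p = 0.0013), and by 0.45 after the correction (adjusted p = 0.048). An mRNA level does not measure the protein. The paper reports that its knockout clones were checked by western blot and DNA sequencing, and which clone gave these libraries is not stated. Every direction in MHCC97H below refers to the label.

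Replicate libraries correlated across genes with a Pearson's r of 0.993 to 0.997, and the 42 genes held 0.23% to 0.294% of the summed FPKM in PLC/PRF5 libraries and 0.417% to 0.532% in MHCC97H libraries. Of 12 hepatocyte markers, 10 had a mean of at least 1 FPKM in Vector and 5 in Mock, where albumin (ALB) was at 1.21, 0.611 and 0.83 FPKM and the apolipoproteins APOA2 and APOC3 were listed at 0. The summed FPKM of this list was 2057 to 2209 in Vector, 2989 to 3996 in EGR1, 17.1 to 22.3 in Mock and 68.6 to 73.6 in the libraries labelled EGR1_KO. The sum thus moved with both comparisons, but its genes did not all move together. SERPINA1 was at 1438, 1343 and 1334 FPKM in Vector and at 1994, 2932 and 2813 FPKM with EGR1. APOA1 was at 2.06, 4.07 and 3.39 FPKM in Vector and at 114, 108 and 117 FPKM with EGR1, and ALB, APOB, FGA, FGB and AFP were higher too. TF and TTR were lower with EGR1. TF was at 111, 113 and 111 FPKM in Vector and at 67.2, 83.7 and 93.8 FPKM with EGR1. In the libraries labelled EGR1_KO ALB was at 16.5, 15.1 and 14.1 FPKM. FGA was at 3.34, 3.17 and 3.06 FPKM in Mock and at 23.9, 25.2 and 25.4 FPKM under that label, where FGB, AFP and TF were higher too and APOB lower. APOB was at 1.4, 1.2 and 1.21 FPKM in Mock and at 0.171, 0.128 and 0.151 FPKM under that label. The part of the shift of this sum in the results was not tested. Of 8 fibroblast and stellate cell markers, none had a mean of at least 1 FPKM in PLC/PRF5 cells and only lumican (LUM) did in MHCC97H cells. The endothelial markers summed to at most 8.55 FPKM, with PECAM1 at 4.93 to 6.3 FPKM in MHCC97H libraries. KDR was at 0.49, 0.527 and 0.495 FPKM in Mock and at 1.99, 1.76 and 1.66 FPKM in the libraries labelled EGR1_KO. Of 5 leukocyte markers the defining PTPRC and CD3E were at most 0.0587 FPKM while CD68 and LYZ, the latter in PLC/PRF5 only, were expressed. CD14 was at 0.569, 0.866 and 0.594 FPKM in Mock and at 1.51, 1.1 and 1.8 FPKM in the libraries labelled EGR1_KO.

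EGR1 binds a GC-rich motif of 9 bases, and the sequence before the start of each gene was searched for it. RefSeq (GRCh38.p14) gave a window of the 250 bases before an annotated start for 34 of the 42 genes, and none was used here for ITGA3, AGRN, TIMP2, COL1A1, MMP2, COL5A2, COL6A1 and ITGB4. Searched on both strands, GCGTGGGCG occurred in 0.72% and GCGGGGGCG in 4.72% of 35116 windows of all genes, and either of them in 5.37%. A gene can have more than 1 window. The first occurred in THBS1 and the second in SDC4, HSPG2, GPC1 and LAMC1, so that 5 of the 44 windows of these 34 genes held a match. A match is a description of these letters and not of binding. The windows of THBS1 (chr15:39580829-39581078, plus strand), TIMP1 (chrX:47582186-47582435, plus strand) and VCAN (chr5:83471494-83471743, plus strand) are shown because these genes had, within a line, the largest rise among glycoproteins, the largest rise of all and the largest fall, with any EGR1 motif in capitals.
THBS1: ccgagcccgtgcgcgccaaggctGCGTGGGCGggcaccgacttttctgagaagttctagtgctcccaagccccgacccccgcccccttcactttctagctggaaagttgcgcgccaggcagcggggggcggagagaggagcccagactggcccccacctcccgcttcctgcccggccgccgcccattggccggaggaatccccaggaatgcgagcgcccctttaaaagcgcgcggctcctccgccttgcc
TIMP1: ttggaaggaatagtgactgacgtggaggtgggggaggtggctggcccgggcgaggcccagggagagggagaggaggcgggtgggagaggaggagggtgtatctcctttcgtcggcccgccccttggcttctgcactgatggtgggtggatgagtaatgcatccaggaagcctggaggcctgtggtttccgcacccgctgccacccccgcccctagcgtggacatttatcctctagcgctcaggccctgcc
VCAN: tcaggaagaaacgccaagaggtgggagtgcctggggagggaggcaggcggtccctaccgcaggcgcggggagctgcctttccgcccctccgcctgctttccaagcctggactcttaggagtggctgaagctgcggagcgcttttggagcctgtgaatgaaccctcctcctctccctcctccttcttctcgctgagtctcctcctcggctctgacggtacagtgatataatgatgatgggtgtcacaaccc
The THBS1 match ended 219 bases before the start, and the TIMP1 and VCAN windows held neither motif. The other matches are shown with their flanks, in capitals, on the strand of the gene, for SDC4 (chr20:45348457-45348515, minus strand), HSPG2 (chr1:21937327-21937385, minus strand), GPC1 (chr2:240435507-240435565, plus strand) and LAMC1 (chr1:183023214-183023272, plus strand). In GPC1 and LAMC1 the motif lies on the opposite strand, so its reverse complement is in capitals.
SDC4: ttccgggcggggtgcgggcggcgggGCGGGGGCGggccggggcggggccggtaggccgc
HSPG2: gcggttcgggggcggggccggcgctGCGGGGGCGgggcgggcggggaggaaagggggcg
GPC1: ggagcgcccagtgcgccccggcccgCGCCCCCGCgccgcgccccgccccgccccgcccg
LAMC1: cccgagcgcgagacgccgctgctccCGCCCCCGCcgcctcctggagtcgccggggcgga
These matches ended 58, 42, 123 and 173 bases before the start. In PLC/PRF5 cells with EGR1, THBS1 and SDC4 were higher, HSPG2 and GPC1 were lower and LAMC1 was not called, so the genes with a match did not share a direction.

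Of the 42 genes, 30 passed the filter in PLC/PRF5. With EGR1, 8 were higher and 15 lower, and 7 were not called, where 19.2% of the 11671 genes tested were higher and 10.4% lower. The median difference of the 30 was -0.21, against 0.09 for all genes. After the GC and length correction, 8 were higher and 16 lower against 16.8% and 17.9% of all genes, with a median of -0.34 against 0.0025, and 21 genes were called the same way in both fits. THBS1 and CD44 passed the filter through the EGR1 group alone, as did VCAN in MHCC97H through Mock, so that their direction was fixed by the filter. The 12 that did not pass were COL1A1, COL4A1, COL4A2, COL5A1, COL6A3, COL12A1, SPARC, SPP1, TNC, MMP2, MMP14 and TIMP3. In MHCC97H 34 passed, of which 16 were higher and 10 lower in the libraries labelled EGR1_KO and 8 were not called, where 34.8% of the 11577 genes tested were higher and 31.5% lower. Their median difference was 0.23, against 0.02 for all genes. The correction left 15 higher and 11 lower against 24.3% and 22.4%, with a median of 0.04, and 22 were called the same way in both fits. COL1A1, COL4A1, COL4A2, COL5A1, COL12A1, SPARC, TNC and ITGA1 did not pass in MHCC97H. When every gene above 0 in at least 1 library was tested, 5 values of these low genes were called, namely SPARC (-0.73, limma adjusted p = 0.016) and SPP1 (0.29, adjusted p = 0.045) in PLC/PRF5, and ITGA1 (0.38, adjusted p = 0.0042), TNC (-0.27, adjusted p = 0.0094) and COL4A2 (0.18, adjusted p = 0.038) in MHCC97H.

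The split of all called genes depended on the scaling. The higher share was 64.8% in PLC/PRF5 as deposited and 46.0% after quantile normalization, and 52.5% in MHCC97H as deposited and 41.6% after scaling to a common total, which moved the median of all genes there to -0.11. Among the 42 genes the higher share of calls moved less in these 2 cases, from 34.8% to 30.0% and from 61.5% to 53.6%. Under quantile normalization in MHCC97H it moved more than that of all genes, to 57.7% against 50.2%. Scaling to a common total ended the calls of GPC1, ITGA6, LAMA3 and VCAN in PLC/PRF5 (limma adjusted p of 0.056, 0.051, 0.062 and 0.072) and of TIMP2 in MHCC97H (adjusted p = 0.13). Quantile normalization ended those of LAMA3, ITGA6 and VCAN in PLC/PRF5 (adjusted p of 0.12, 0.055 and 0.25).

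**Figure D1:**
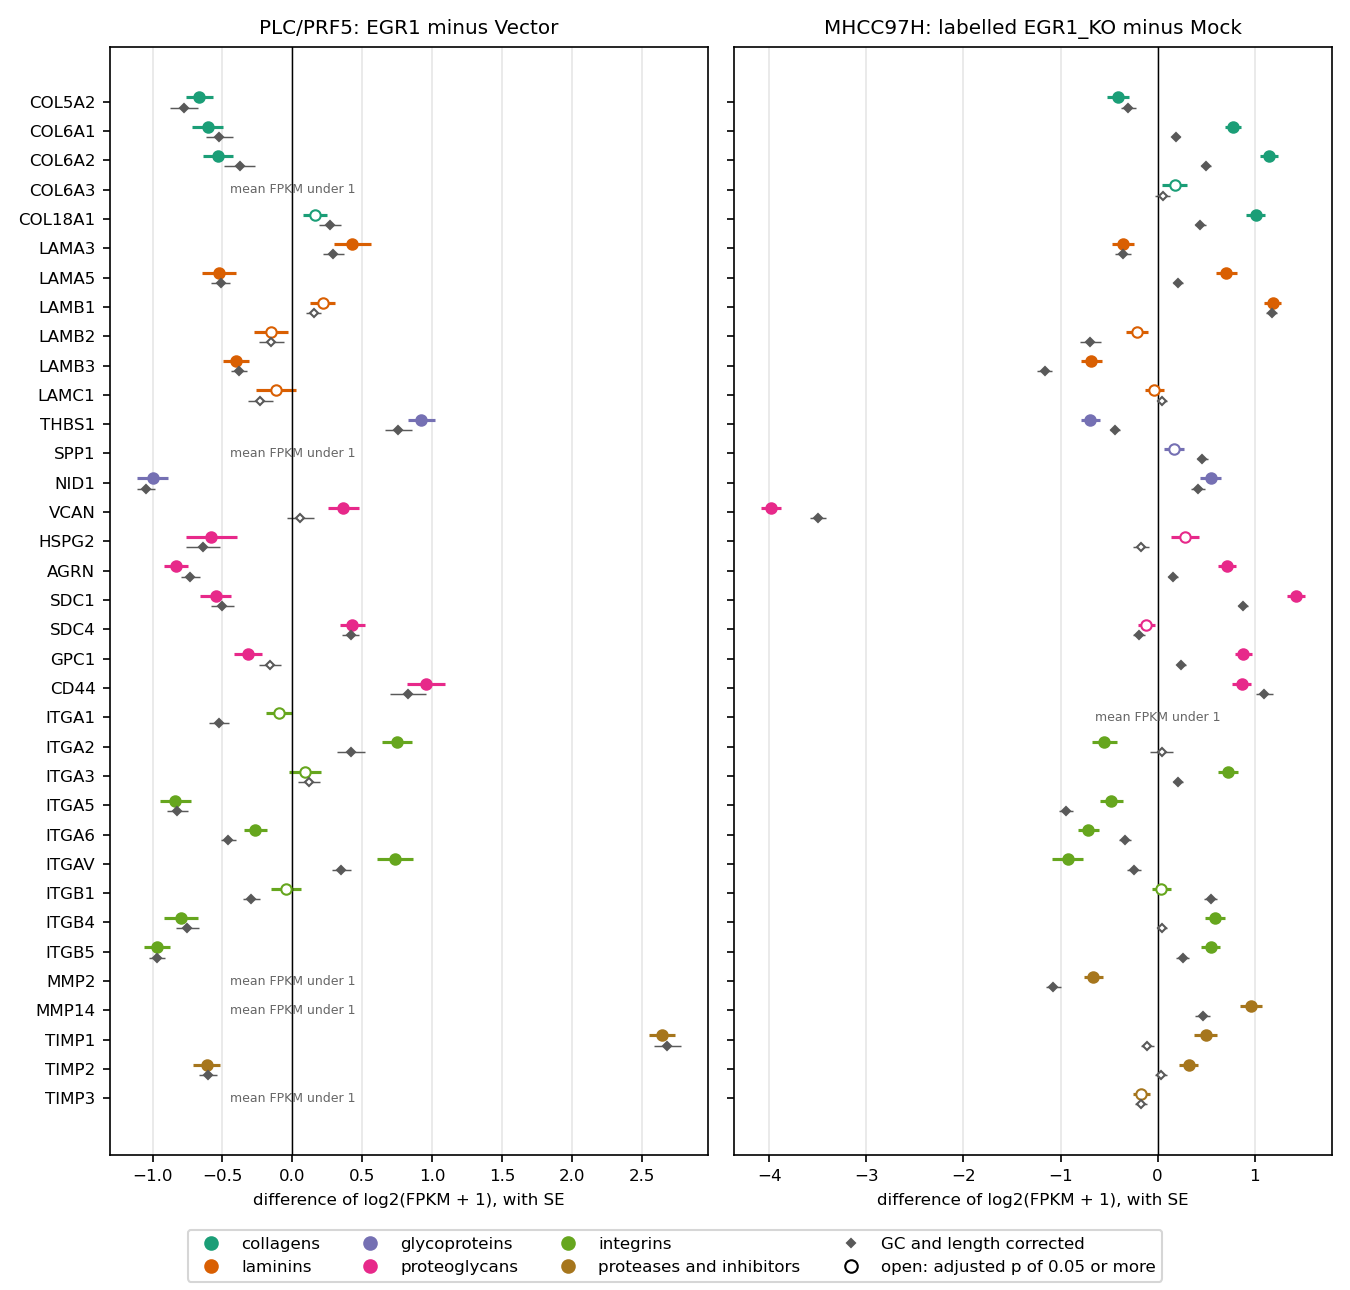
Difference of log2(FPKM + 1) with its SE (n = 3 per group) in both lines, filled where the limma adjusted p was under 0.05 and open where it was not. Circles are values as deposited and small grey diamonds the GC and length corrected values. TIMP1 at 2.65 in PLC/PRF5 and VCAN at -3.98 in MHCC97H stand farthest from 0, and many MHCC97H diamonds lie nearer to 0 than their circles.

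The inhibitor TIMP1 had the largest change of the set in PLC/PRF5 cells. TIMP1, a secreted protein that blocks most matrix metalloproteinases, lies on chromosome X (GRCh38, 47582313 to 47586789, plus strand) within SYN1 on the opposite strand, which was listed at most at 0.197 FPKM. It was at 9.81, 8.19 and 8.85 FPKM in Vector and at 58.0, 60.4 and 65.5 FPKM with EGR1. The groups were far apart, with a ratio of means of 6.85. The difference was 2.65 (SE 0.094, limma adjusted p = 1.4e-06), and 2.68 after the correction. In MHCC97H TIMP1 was at 118, 129 and 139.8 FPKM in Mock and at 173, 163 and 215 FPKM in the libraries labelled EGR1_KO. This difference of 0.50 (SE 0.12, limma adjusted p = 0.0051) did not hold after the correction, where it was -0.10 (adjusted p = 0.24).

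TIMP2, which inhibits metalloproteinases and also takes part in the activation of MMP2 by MMP14, changed the other way in PLC/PRF5. Its levels were 23.2, 19.2 and 22.3 FPKM in Vector and 13.4, 13.3 and 14.4 FPKM with EGR1. The groups did not overlap, and the difference was -0.61 (SE 0.095, limma adjusted p = 0.0027) and -0.60 after the correction. In MHCC97H TIMP2 was at 83.5, 82.9 and 91.1 FPKM in Mock and at 112, 96.4 and 114 FPKM in the libraries labelled EGR1_KO. The difference of 0.32 (limma adjusted p = 0.014) was not called after the correction (0.04, adjusted p = 0.65), nor without Mock replicate 2 (adjusted p = 0.067) or EGR1_KO replicate 1 (adjusted p = 0.052), and it was -0.0072 after quantile normalization. TIMP3, an inhibitor that stays bound to the matrix, was at 46.4, 45.5 and 48.8 FPKM in Mock and at 42.7, 38.2 and 44.1 FPKM in the libraries labelled EGR1_KO, a difference of -0.17 that was not called (limma adjusted p = 0.12) but passed after scaling to a common total (adjusted p = 0.0088) and quantile normalization (adjusted p = 0.0024). In PLC/PRF5 no library exceeded 0.425 FPKM.

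The 2 metalloproteinases of the set were under the filter in PLC/PRF5 and moved in opposite directions in MHCC97H. MMP14, a membrane-anchored collagenase, was at 5.76, 7.03 and 7.52 FPKM in Mock and at 13.2, 14.1 and 14.8 FPKM in the libraries labelled EGR1_KO. The difference was 0.96 (SE 0.11, limma adjusted p = 1.4e-04) and 0.46 after the correction (adjusted p = 0.0023). MMP2, a gelatinase that MMP14 activates at the cell surface, was at 9.73, 8.71 and 9.39 FPKM in Mock and at 5.7, 5.14 and 5.61 FPKM in the libraries labelled EGR1_KO. Its difference was -0.66 (SE 0.098, limma adjusted p = 4.4e-04), and -1.07 after the correction. In PLC/PRF5 MMP14 was at most 0.186 FPKM in Vector and 0.244 to 0.609 FPKM with EGR1, and MMP2 was at most 0.103 FPKM in either group.

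VCAN had the largest change of the set in MHCC97H. VCAN encodes versican, a large chondroitin sulphate proteoglycan that binds hyaluronan, and lies on chromosome 5 (GRCh38, 83471465 to 83582303, plus strand). It was at 20.8, 20.0 and 19.2 FPKM in Mock and at 0.445, 0.273 and 0.278 FPKM in the libraries labelled EGR1_KO. The Mock mean was 60.3 times the other, and the difference was -3.98 (SE 0.11, limma adjusted p = 2.2e-07) and -3.50 after the correction. VCAN passed the filter in this line through Mock alone, which fixed its direction. LUM, which makes up most of the fibroblast and stellate cell list here, was listed at 10.9, 7.4 and 7.77 FPKM in Mock against 1.23, 1.41 and 0.91 FPKM, and the 8 markers summed to 7.53 to 10.9 FPKM in Mock against 0.997 to 1.5 FPKM. The part of this list in the VCAN result was not tested. Its defining collagen transcripts were at or near 0 in both groups, with COL1A2 at most 0.0087 FPKM and COL3A1 at most 0.0481 FPKM. Fewer cells of a kind and less RNA per cell cannot be told apart in these bulk libraries. Mock cells were parental, whereas the knockout clones of the study were infected with a guide RNA virus and grown from single cells. The effects of virus, cloning and EGR1 state cannot be told apart either. In PLC/PRF5 VCAN was at 2.89, 2.21 and 2.44 FPKM in Vector and at 3.61, 3.24 and 3.7 FPKM with EGR1. That difference of 0.36 (limma adjusted p = 0.035) rested on single libraries, with an adjusted p up to 0.12 on leaving out Vector replicate 2 or 3 or EGR1 replicate 1, 2 or 3, and was 0.06 after the correction (adjusted p = 0.67).

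CD44, the surface receptor for hyaluronan, was higher in both comparisons. In PLC/PRF5 it passed the filter through the EGR1 group alone, which fixed its direction there. It was at 1.02, 0.603 and 0.873 FPKM in Vector and at 2.08, 3.09 and 2.52 FPKM with EGR1, a difference of 0.96 (SE 0.14, limma adjusted p = 0.0020). In MHCC97H it was at 50.6, 47.0 and 51.4 FPKM in Mock and at 97.7, 80.8 and 97.0 FPKM in the libraries labelled EGR1_KO, a difference of 0.87 (SE 0.098, limma adjusted p = 1.1e-04). Neither pair of groups overlapped, and both differences remained after the correction, at 0.83 and 1.10.

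The syndecans SDC1 and SDC4 are transmembrane heparan sulphate proteoglycans that act as co-receptors of growth factors. SDC1 was at 74.2, 71.4 and 64.8 FPKM in Vector and at 41.3, 49.1 and 52.9 FPKM with EGR1, a difference of -0.55 (limma adjusted p = 0.0069, corrected -0.50). In MHCC97H SDC1 was at 39.3, 41.4 and 45.7 FPKM in Mock and at 117, 106 and 121 FPKM in the libraries labelled EGR1_KO. The difference was 1.42 (SE 0.093, limma adjusted p = 1.7e-05), the largest rise of the set in that line as deposited, and 0.88 after the correction, where LAMB1 (1.17) and CD44 (1.10) rose more. SDC4 was at 37.9, 34.9 and 35.7 FPKM in Vector and at 45.0, 52.3 and 49.9 FPKM with EGR1, a difference of 0.43 (limma adjusted p = 0.0081, corrected 0.42). Its MHCC97H values, 20.0, 20.0 and 20.7 FPKM in Mock and 18.1, 17.7 and 19.9 FPKM in the libraries labelled EGR1_KO, gave a difference of -0.12 (limma adjusted p = 0.26) that was called only after the correction (-0.19, adjusted p = 0.026) and after scaling to a common total (adjusted p = 0.021).

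The basement membrane proteoglycans agrin and perlecan and the membrane-anchored glypican GPC1 were lower with EGR1 in PLC/PRF5. AGRN was at 85.9, 74.8 and 80.5 FPKM in Vector and at 44.4, 43.3 and 46.3 FPKM with EGR1, a difference of -0.83 (SE 0.085, limma adjusted p = 4.0e-04, corrected -0.73). HSPG2, which encodes perlecan, was at 19.6, 11.2 and 18.6 FPKM in Vector and at 10.1, 9.74 and 11.5 FPKM with EGR1, so the groups overlapped at the Vector replicate of 11.2 FPKM. Its difference of -0.58 (limma adjusted p = 0.044, corrected -0.64) was not called on leaving out Vector replicate 1 or 3 or any 1 EGR1 replicate, with an adjusted p up to 0.14. GPC1 was at 5.49, 5.25 and 5.38 FPKM in Vector and at 4.17, 3.66 and 4.53 FPKM with EGR1, a difference of -0.32 (limma adjusted p = 0.040) that was not called after the correction (-0.16, adjusted p = 0.13) or on leaving out Vector replicate 1 or 3 or any 1 EGR1 replicate, with an adjusted p up to 0.16.

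In MHCC97H these 3 genes lay on the other side of 0 as deposited, by amounts that shrank with the correction. GPC1 was at 47.1, 51.2 and 55.3 FPKM in Mock and at 95.8, 90.2 and 100.01 FPKM in the libraries labelled EGR1_KO, a difference of 0.89 (limma adjusted p = 7.5e-05) and 0.24 after the correction (adjusted p = 0.0040). AGRN was at 40.5, 42.9 and 47.0 FPKM in Mock and at 76.0, 67.5 and 72.4 FPKM in the libraries labelled EGR1_KO, a difference of 0.71 (limma adjusted p = 2.1e-04) and 0.16 after the correction (adjusted p = 0.026). HSPG2 was not called (0.29, limma adjusted p = 0.11), and its corrected difference was -0.17.

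Among the glycoproteins, THBS1 and NID1 were called in both lines, each in opposite directions. THBS1 encodes thrombospondin 1, which inhibits angiogenesis and activates latent TGF-beta, and lies on chromosome 15 (GRCh38, 39581079 to 39599466, plus strand). It was at 0.904, 1.01 and 0.982 FPKM in Vector and at 2.93, 2.51 and 2.74 FPKM with EGR1, a ratio of means of 2.83 and a difference of 0.92 (SE 0.098, limma adjusted p = 5.0e-04, corrected 0.76). There THBS1 passed the filter through the EGR1 group alone, which fixed its direction. In MHCC97H the levels were 38.9, 39.3 and 35.8 FPKM in Mock and 25.8, 22.7 and 21.1 FPKM in the libraries labelled EGR1_KO, a difference of -0.69 (SE 0.097, limma adjusted p = 3.5e-04, corrected -0.44). NID1, the nidogen that links laminin to type IV collagen, was at 18.7, 14.6 and 18.2 FPKM in Vector and at 7.97, 7.77 and 8.36 FPKM with EGR1. Its difference of -1.0 (SE 0.11, limma adjusted p = 5.5e-04, corrected -1.05) was the largest fall on the log2(FPKM + 1) scale among those of the 42 genes that passed the filter in PLC/PRF5, with a ratio of means of 0.468. In MHCC97H NID1 was at 20.0, 21.5 and 21.0 FPKM in Mock and at 36.2, 27.6 and 29.4 FPKM in the libraries labelled EGR1_KO, a difference of 0.55 (limma adjusted p = 0.0022, corrected 0.42).

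SPP1, which encodes the integrin ligand osteopontin, was the most abundant gene of the set in MHCC97H. It was at 291, 264 and 229 FPKM in Mock and at 298, 300.3 and 283 FPKM in the libraries labelled EGR1_KO, and the groups overlapped. The difference of 0.17 was not called (limma adjusted p = 0.16), whereas the corrected one was (0.46, adjusted p = 6.5e-04), and quantile normalization gave -0.09. SPARC, a collagen-binding protein, did not pass the filter, with 1.58, 1.46 and 1.08 FPKM in Vector and 0.245, 0.536 and 0.509 FPKM with EGR1. The groups did not overlap, and the ratio of means was 0.313. TNC, which encodes tenascin C, was at most 0.335 FPKM in any library.

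The laminins differed among themselves. LAMB1, the beta 1 chain of the widely expressed laminins, was at 32.6, 31.6 and 30.2 FPKM in Mock and at 78.9, 71.8 and 68.0 FPKM in the libraries labelled EGR1_KO. The groups were well apart, with a difference of 1.18 (SE 0.088, limma adjusted p = 2.4e-05) that the correction left at 1.17. DLD, which overlaps LAMB1 on the opposite strand, was at 78.1, 66 and 55 FPKM in Mock and at 41, 48.2 and 33.7 FPKM in the libraries labelled EGR1_KO, and whether the counting used strand is not given in the sources used here. In PLC/PRF5 LAMB1 was at 36.2, 30.6 and 35.8 FPKM in Vector and at 38.9, 38.9 and 41.6 FPKM with EGR1, a difference of 0.22 that was not called (limma adjusted p = 0.11).

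LAMA3 and LAMB3 encode chains of laminin-332, which anchors epithelial cells to the basement membrane. LAMB3 was lower in both lines. It was at 20.3, 17.2 and 19.3 FPKM in Vector and at 13.3, 13.9 and 15.1 FPKM with EGR1, a difference of -0.40 (limma adjusted p = 0.015, corrected -0.38), which was not called without Vector replicate 3 or EGR1 replicate 2 (adjusted p = 0.057 and 0.059). In MHCC97H its levels were 13.2, 13.7 and 14.9 FPKM in Mock and 8.1, 7.49 and 9.33 FPKM in the libraries labelled EGR1_KO, a difference of -0.68 (limma adjusted p = 5.9e-04, corrected -1.16). LAMA3 was higher with EGR1 in PLC/PRF5 (8.46, 6.07 and 8.91 FPKM in Vector, 10.2, 10.7 and 11.3 FPKM with EGR1, difference 0.43, limma adjusted p = 0.039, corrected 0.29). It was lower in the libraries labelled EGR1_KO (14.3, 16.3 and 15.0 FPKM in Mock, 13.0, 12.1 and 10.0 FPKM, difference -0.36, limma adjusted p = 0.019, corrected -0.36). In PLC/PRF5 the LAMA3 call was lost without Vector replicate 1 or any 1 EGR1 replicate, with an adjusted p up to 0.12, and in MHCC97H without Mock replicate 2 (adjusted p = 0.082) or EGR1_KO replicate 3 (adjusted p = 0.062).

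LAMA5, the alpha 5 chain of epithelial basement membranes, was at 25.8, 18.7 and 25.0 FPKM in Vector and at 16.2, 15.0 and 15.8 FPKM with EGR1, a difference of -0.53 (limma adjusted p = 0.014, corrected -0.51). The call was lost without Vector replicate 3 (adjusted p = 0.058) or EGR1 replicate 2 (adjusted p = 0.054). In MHCC97H LAMA5 was at 20.1, 23.3 and 24.4 FPKM in Mock and at 42.1, 35.2 and 35.6 FPKM in the libraries labelled EGR1_KO, a difference of 0.71 (limma adjusted p = 5.3e-04, corrected 0.21). ADRM1, which overlaps LAMA5 on the opposite strand, was at 64.5, 67.4 and 76.2 FPKM in Mock and at 129, 119.6 and 134 FPKM in the libraries labelled EGR1_KO, so it was higher together with LAMA5. Neither LAMB2 nor LAMC1 was called in either line as deposited, although LAMC1 was in PLC/PRF5 without Vector replicate 2 (adjusted p = 0.030), and LAMB2 was in MHCC97H after the correction (-0.69, adjusted p = 0.0014) and after scaling to a common total (adjusted p = 0.037).

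The collagen genes that passed the filter encode types V, VI and XVIII. Of the type VI chains, which form beaded microfibrils next to cells, COL6A1 and COL6A2 changed in opposite directions in the 2 lines. COL6A1 was at 4.53, 4.06 and 5.18 FPKM in Vector and at 2.37, 2.76 and 2.86 FPKM with EGR1, a difference of -0.61 (limma adjusted p = 0.0052, corrected -0.52). COL6A2 was at 1.9, 1.97 and 2.26 FPKM in Vector and at 0.949, 1.22 and 1.14 FPKM with EGR1, a difference of -0.53 (limma adjusted p = 0.0069, corrected -0.38). The ratios of means to Vector were 0.581 and 0.54.

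In MHCC97H COL6A1 was at 95.1, 99.1 and 105 FPKM in Mock and at 178, 161 and 178 FPKM in the libraries labelled EGR1_KO, a difference of 0.78 (limma adjusted p = 1.0e-04) and 0.19 after the correction (adjusted p = 0.011). COL6A2 was at 54.4, 56.3 and 63.1 FPKM in Mock and at 133, 119 and 137 FPKM in the libraries labelled EGR1_KO, a difference of 1.15 (SE 0.094, limma adjusted p = 3.5e-05, corrected 0.50). The third chain, COL6A3, was at 6.36, 7.08 and 8.18 FPKM in Mock and at 9.66, 7.55 and 7.64 FPKM in the libraries labelled EGR1_KO, and the groups overlapped (0.18, limma adjusted p = 0.25). COL18A1, the basement membrane collagen from which endostatin is cleaved, was at 27.5, 28.1 and 32.0 FPKM in Mock and at 62.1, 55.1 and 62.2 FPKM in the libraries labelled EGR1_KO. Its difference was 1.01 (SE 0.095, limma adjusted p = 5.3e-05, corrected 0.44). SLC19A1, which overlaps it on the opposite strand, was at 11.3, 12.4 and 12.01 FPKM in Mock and at 16.7, 16.8 and 18.1 FPKM in the libraries labelled EGR1_KO. In PLC/PRF5 COL18A1 was called only after the correction (0.27, adjusted p = 0.028).

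COL5A2, a chain of the type V collagen that is built into fibrils, was lower in both comparisons. It was at 3.44, 3.54 and 3.25 FPKM in Vector and at 1.65, 1.74 and 1.96 FPKM with EGR1, a difference of -0.67 (limma adjusted p = 0.0021, corrected -0.77). In MHCC97H its levels were 6.01, 5.44 and 6.01 FPKM in Mock and 4.79, 3.96 and 3.73 FPKM in the libraries labelled EGR1_KO, a difference of -0.41 (limma adjusted p = 0.011, corrected -0.30).

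The fibrillar collagens COL1A1 and COL5A1 and the fibril-associated COL12A1 were at most 0.334 FPKM in any library. The type IV genes, the main network of the basement membrane, start on opposite strands, with 126 bases between them, on chromosome 13, and the sequence between the 2 RefSeq starts (chr13:110307158-110307283, GRCh38.p14, plus strand, COL4A1 to the left) is shown because the pair did not have like levels. Neither EGR1 motif occurs in it, so no base is in capitals.
COL4A1 to COL4A2: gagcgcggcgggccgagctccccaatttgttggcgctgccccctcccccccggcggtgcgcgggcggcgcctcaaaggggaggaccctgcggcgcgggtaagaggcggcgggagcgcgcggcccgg
COL4A1 was listed at 0 in 11 libraries and at 0.0229 FPKM in Mock replicate 1. COL4A2 was at 0.38, 0.45 and 0.504 FPKM in Mock and at 0.639, 0.587 and 0.668 FPKM in the libraries labelled EGR1_KO, and at most 0.0319 FPKM in PLC/PRF5. An exact 0 in FPKM can be a failed estimate, and the annotated genes overlap.

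The integrin alpha subunits set the ligand, and the alpha 5 subunit with beta 1 is the main fibronectin receptor. ITGA5 was at 69.9, 52.5 and 65.0 FPKM in Vector and at 34.2, 33.1 and 35.5 FPKM with EGR1, a difference of -0.84 (SE 0.11, limma adjusted p = 0.0014, corrected -0.82). It was also lower in the libraries labelled EGR1_KO, with 9.08, 10.8 and 11.7 FPKM in Mock and 8.09, 6.61 and 7.13 FPKM, a difference of -0.48 (limma adjusted p = 0.0068, corrected -0.94). ITGA6, the laminin receptor subunit that pairs with beta 4 in hemidesmosomes, was lower in both lines as well. In PLC/PRF5 it was at 49.9, 48.8 and 53.9 FPKM in Vector and at 43.8, 40.7 and 41.9 FPKM with EGR1 (-0.27, limma adjusted p = 0.038, corrected -0.46), a call lost without Vector replicate 1 or 3 or EGR1 replicate 2 or 3, with an adjusted p up to 0.15. In MHCC97H it was at 84.6, 81.5 and 77.5 FPKM in Mock and at 56.8, 48.7 and 42.7 FPKM in the libraries labelled EGR1_KO (-0.71, limma adjusted p = 5.6e-04, corrected -0.33).

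ITGAV, the alpha subunit of receptors for vitronectin and osteopontin, and the collagen receptor subunit ITGA2 were higher with EGR1 and lower in the libraries labelled EGR1_KO. ITGAV was at 22.6, 31.5 and 28.7 FPKM in Vector and at 51.7, 43.9 and 43.6 FPKM with EGR1, a difference of 0.74 (limma adjusted p = 0.0043, corrected 0.35). In MHCC97H the levels were 72.4, 61.6 and 53.4 FPKM in Mock and 36.3, 36.8 and 24.8 FPKM in the libraries labelled EGR1_KO, a difference of -0.93 (limma adjusted p = 0.0011, corrected -0.24). ITGA2 was at 9.04, 7.45 and 9.49 FPKM in Vector and at 15.9, 15.0 and 14.6 FPKM with EGR1, a difference of 0.75 (limma adjusted p = 0.0018, corrected 0.42). Its fall in MHCC97H, from 5.12, 5.43 and 4.96 FPKM to 4.06, 2.9 and 2.81 FPKM (-0.55, limma adjusted p = 0.0051), was not called after the correction (0.04, adjusted p = 0.79). The transcripts of ITGAV and ITGA2 had a GC content of 38.3% and 40.2%, against a median of 48.7% over the genes tested.

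ITGA3, a laminin receptor subunit, was at 40.4, 44.6 and 50.8 FPKM in Mock and at 80.1, 69.5 and 76.8 FPKM in the libraries labelled EGR1_KO, a difference of 0.73 (limma adjusted p = 3.9e-04, corrected 0.21), and was not called in PLC/PRF5 (0.09, limma adjusted p = 0.57). ITGA1, a collagen receptor subunit that overlaps PELO on the same strand, was at 3.42, 3.85 and 3.85 FPKM in Vector and at 3.49, 3.42 and 3.28 FPKM with EGR1, not called as deposited (-0.10, limma adjusted p = 0.46) and called after the correction (-0.52, adjusted p = 0.0012).

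Of the beta subunits, ITGB5, the partner of alpha V in a vitronectin receptor, had the clearest change. It was at 200.1, 183 and 193 FPKM in Vector and at 89.3, 99.2 and 105 FPKM with EGR1, a ratio of means of 0.509 and a difference of -0.97 (SE 0.093, limma adjusted p = 2.9e-04) that the correction left at -0.97. In MHCC97H its levels were 39.7, 39.7 and 45.3 FPKM in Mock and 64.8, 54.8 and 64.3 FPKM in the libraries labelled EGR1_KO, a difference of 0.55 (limma adjusted p = 0.0013, corrected 0.26). ITGB4 was at 47.1, 33.5 and 42 FPKM in Vector and at 22.3, 22.4 and 23.8 FPKM with EGR1, a difference of -0.80 (limma adjusted p = 0.0024, corrected -0.75). In MHCC97H ITGB4 was at 26.1, 29 and 32.5 FPKM in Mock and at 46.8, 41.2 and 44.9 FPKM in the libraries labelled EGR1_KO, a difference of 0.59 (limma adjusted p = 0.0010) that was not called after the correction (0.04, adjusted p = 0.51). GALK1, which overlaps ITGB4 on the opposite strand, was also higher there, at 18.6, 22.2 and 24.2 FPKM in Mock and at 49.0, 47.1 and 55.9 FPKM in the libraries labelled EGR1_KO. ITGB1, the common partner of most alpha subunits and the most abundant gene of the set in PLC/PRF5, was at 285, 357 and 308 FPKM in Vector and at 298, 315 and 305 FPKM with EGR1. It was not called as deposited in PLC/PRF5 (-0.05, limma adjusted p = 0.77) or MHCC97H (0.04, limma adjusted p = 0.74), and after the correction it was lower in the first (-0.29, adjusted p = 0.0073) and higher in the second (0.55, adjusted p = 5.5e-04).

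Of the 29 genes tested in both lines, 21 were called in both as deposited, where 21.5% of the 10369 genes tested in both were. CD44 and TIMP1 were higher in both (2.55% of all genes), and COL5A2, LAMB3, ITGA5 and ITGA6 were lower in both (0.984%). LAMA3, THBS1, VCAN, ITGA2 and ITGAV were higher with EGR1 and lower in the libraries labelled EGR1_KO (11.7%). The filter fixed the direction of CD44 and THBS1 in PLC/PRF5 and of VCAN in MHCC97H. A class of 10 genes was lower with EGR1 and higher in the libraries labelled EGR1_KO, where 6.25% of all genes were, and it held COL6A1, COL6A2, LAMA5, NID1, AGRN, SDC1, GPC1, ITGB4, ITGB5 and TIMP2. After the correction 18 genes were called in both lines, of which 12 lay in opposite directions and 6 in the same direction, the latter being COL18A1, CD44, COL5A2, LAMB3, ITGA5 and ITGA6, where 17.7% of all genes were called in both. By class, 2 of these 18 were higher in both lines (2.92% of all genes), 4 lower in both (2.98%), 4 higher with EGR1 and lower under the knockout label (5.7%), and 8 the reverse (6.06%). Opposite directions were the rule for all genes called in both lines, at 83.6% of them as deposited and 66.6% after the correction, against 71.4% and 66.7% of the 42-gene set's calls. These counts describe 2 different manipulations in 2 lines that share no control libraries, and no test of a difference between the lines was made.

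Across genes, which are not independent replicates, Spearman's rho between GC content and the difference was -0.45 in PLC/PRF5 and 0.77 in MHCC97H. The median GC content was 60.7% for the collagens, 60.1% for the proteoglycans, 54.8% for the laminins, 56.5% for the proteases and inhibitors, 47.3% for the glycoproteins and 42.9% for the integrins. COL6A1, COL6A2, COL18A1, AGRN and GPC1, whose MHCC97H differences shrank but were still called, had a GC content of 63.5% to 67.5%. Differences that the correction left nearly as they were included TIMP1, NID1 and ITGB5 in PLC/PRF5 and LAMB1 in MHCC97H.

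**Figure D2:**
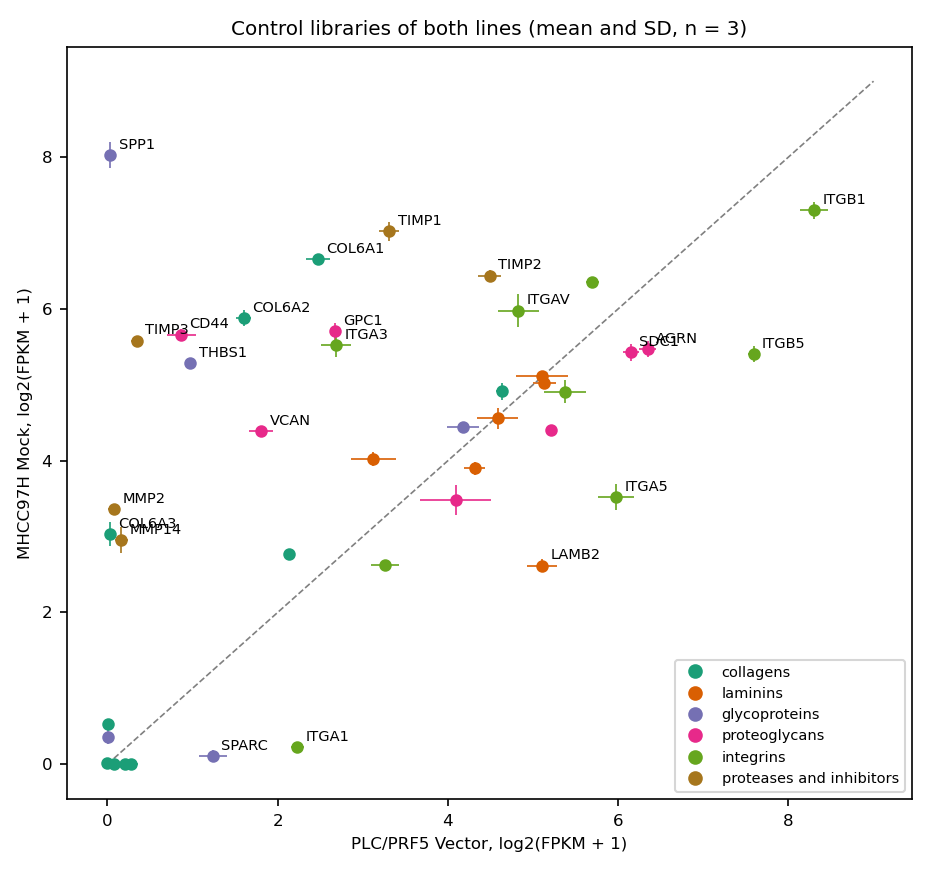
Mean and SD (n = 3) of log2(FPKM + 1) in the MHCC97H Mock libraries against the PLC/PRF5 Vector libraries for the 42 genes, coloured by role, with the line of equality dashed. SPP1, TIMP3, CD44 and THBS1 lie far above the line and LAMB2, ITGA5 and ITGB5 below it.

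The Mock and Vector libraries give the level of these genes in the control cells of each line. Mock cells were parental, whereas Vector cells carried the empty lentiviral vector, so that the line and the vector cannot be told apart here. Of 35 genes tested, 20 were higher in Mock than in Vector and 12 lower, where 38.8% of the 12046 genes tested were higher and 40.9% lower. After the correction 20 were higher and 13 lower against 39.4% and 42.1%, and 32 were called the same way in both fits. The median difference as deposited was 0.63, against -0.02 for all genes, and after the correction 0.42 against -0.03. This comparison sets 1 line against another and shares its Vector and Mock libraries with the comparisons above, so its values stand beside theirs and are not independent of them. Of 9 integrins, 6 were lower in Mock. All 5 collagens, 3 glycoproteins and 5 proteases and inhibitors that passed the filter were higher, but COL6A3, THBS1, SPP1, MMP2, MMP14 and TIMP3 passed through Mock alone, which fixed their direction, as it did for CD44 and, through Vector, for ITGA1. Among the 7 genes that did not pass, SPARC (-1.13, limma adjusted p = 8.8e-05), COL1A1 (-0.27, adjusted p = 0.0013), COL12A1 (-0.20, adjusted p = 0.0019) and COL5A1 (-0.07, adjusted p = 0.014) were lower in Mock when every gene above 0 was tested, and COL4A2 (0.52, adjusted p = 4.9e-05) and TNC (0.35, adjusted p = 8.0e-04) were higher.

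SPP1 had the largest difference, at 0, 0.0791 and 0 FPKM in Vector against 291, 264 and 229 FPKM in Mock, or 7.99 on the log2(FPKM + 1) scale (SE 0.11, limma adjusted p = 2.1e-10). TIMP3 was at 0.206, 0.302 and 0.304 FPKM in Vector against 46.4, 45.5 and 48.8 FPKM in Mock (5.24, limma adjusted p = 6.4e-10). The same order held for CD44 (4.80, corrected 4.49), THBS1 (4.31, 3.96), COL6A2 (4.28, 4.57), COL6A1 (4.18, 4.43), TIMP1 (3.71, 4.44), MMP2 (3.28, 3.56), GPC1 (3.03, 3.30), COL6A3 (3.00, 3.01), ITGA3 (2.84, 3.06), MMP14 (2.79, 3.07), VCAN (2.58, 2.07), TIMP2 (1.95, 2.18) and ITGAV (1.15, 0.54), given as differences before and after the correction, with groups that did not overlap. Lower in Mock by at least 1 were LAMB2, the beta chain of laminins at synapses and in the kidney filter (36.5, 29 and 35.4 FPKM in Vector, 4.96, 4.89 and 5.6 FPKM in Mock, -2.49, limma adjusted p = 1.0e-07, corrected -2.30), ITGA5 (-2.46, corrected -2.21), ITGB5 (-2.18, corrected -1.98), ITGA1 (-2.0, corrected -2.65) and ITGB1 (-1.01, corrected -1.41), and ITGA2 (-0.64) passed 1 only when corrected (-1.19). The calls of COL18A1 (0.27, corrected 0.42), NID1 (0.27, corrected 0.32) and HSPG2 (-0.61, corrected -0.55) were lost on leaving out single libraries, namely Vector replicate 3 or Mock replicate 3 for COL18A1, Vector replicate 2 or 3 or any 1 Mock replicate for NID1, and Vector replicate 1 or 3 or Mock replicate 1 for HSPG2, with an adjusted p up to 0.12. LAMC1 and LAMA5 were not called, and LAMB1 was called only after the correction (-0.19, adjusted p = 0.013).

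By level, the 3 highest genes were ITGB1, ITGB5 and AGRN in Vector, with means of 317, 192 and 80.4 FPKM, and SPP1, ITGB1 and TIMP1 in Mock, with means of 262, 157 and 129 FPKM. FPKM is scaled per length but not for GC content or for the treatment with duplex-specific nuclease, so the order of genes holds for these values only. In Vector the spread of SDC1 (70.1 ± 4.8 SD, n = 3) and ITGA5 (62.5 ± 8.9 SD, n = 3), the next in order, overlapped. With EGR1 the order became ITGB1, ITGB5 and TIMP1, with means of 306, 97.8 and 61.3 FPKM, and in the libraries labelled EGR1_KO it was SPP1, TIMP1 and COL6A1, with means of 294, 184 and 172 FPKM. A mean of at least 10 FPKM was reached by 18 of the 42 genes in Vector, 20 with EGR1, 28 in Mock and 26 in the libraries labelled EGR1_KO.

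Other genes of the same pathway were read from 5 lists of 103 genes, whose counts stand beside 19.2% of all genes tested higher and 10.4% lower in PLC/PRF5 (16.8% and 17.9% corrected), and 34.8% and 31.5% in MHCC97H (24.3% and 22.4% corrected). The enzymes that hydroxylate, cross-link and fold collagen moved most evenly in PLC/PRF5, where 2 of 16 tested were higher and 13 lower, with a median of -0.47 against 0.09 for all genes, and the same counts after the correction. LOX, a lysyl oxidase that cross-links collagen, was at 3.23, 3.9 and 3.79 FPKM in Vector and at 0.829, 0.818 and 0.762 FPKM with EGR1 (-1.36, limma adjusted p = 8.2e-05, corrected -1.65). LOX passed the filter through Vector alone, so that its direction was fixed by the filter. Its relative LOXL4 went the other way, from 12.7, 11.3 and 12.1 FPKM to 27.6, 31.2 and 34.2 FPKM (1.29, limma adjusted p = 1.1e-04, corrected 1.32). CRTAP, a part of the prolyl 3-hydroxylation complex, was lower (-0.80, limma adjusted p = 3.8e-04). In MHCC97H 12 of 16 of these enzymes were higher and 2 lower, and 7 higher and 3 lower after the correction, with a median of 0.45 that the correction took to 0.16. PPIB (1.01) and P4HB (0.93), which fold and hydroxylate collagen in the endoplasmic reticulum, rose most as deposited, with corrected differences of 0.40 and 0.41.

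Of other proteases and inhibitors, 1 of 13 tested was higher and 4 lower in PLC/PRF5 (2 and 6 after the correction), where SERPINE2, an inhibitor of thrombin and urokinase, fell from 48.2, 51.7 and 50.1 FPKM to 26.1, 27.8 and 25.4 FPKM (-0.90, limma adjusted p = 2.0e-04). The metalloproteinase MMP7, also lower there, passed the filter through Vector alone, so that its direction was fixed by the filter. In MHCC97H 6 of 19 were higher and 4 lower (4 and 5 after the correction). CTSD, a lysosomal aspartic protease, was at 277, 300.1 and 330.4 FPKM in Mock and at 1209, 1103 and 1316 FPKM in the libraries labelled EGR1_KO (2.00, limma adjusted p = 5.3e-06, corrected 1.29). PLAU, the urokinase gene, was at 11.3, 10.8 and 10.7 FPKM in Mock and at 4.84, 4.87 and 5.66 FPKM in the libraries labelled EGR1_KO (-0.96, limma adjusted p = 7.8e-05, corrected -1.30), and ADAM9 was lower as well (-1.09, corrected -0.55).

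Integrin adaptors, which link the integrin tails to actin, were the list with the fewest calls in PLC/PRF5, with 1 of 18 higher (FERMT2, 0.52, limma adjusted p = 0.0082) and 0 lower. At an unadjusted limma p under 0.05 there were 1 and 1, and after the correction 2 were higher and 4 lower by adjusted p. In MHCC97H 9 of 16 were higher and 5 lower (7 and 2 after the correction), with ZYX at 51.1, 50.3 and 63.3 FPKM in Mock and at 141, 125 and 149 FPKM in the libraries labelled EGR1_KO (1.33, limma adjusted p = 3.8e-05, corrected 0.65) and FERMT1 lower (-1.01, corrected -0.98). Of 7 other matrix proteins tested in PLC/PRF5 0 were higher and 4 lower (1 and 5 at an unadjusted limma p under 0.05), led by LTBP1 (-1.11, limma adjusted p = 2.0e-04), and after the correction 1 was higher and 4 lower. In MHCC97H 4 of 9 were higher and 1 lower, led by LAMA4 (0.89, limma adjusted p = 2.1e-04, corrected 1.06), and 3 and 3 after the correction. Of other surface proteoglycans and receptors, 1 of 9 was higher and 2 lower in PLC/PRF5 (1 and 5 after the correction), led by the laminin-binding integrin subunit ITGA7, which was at 3.3, 2.67 and 3.31 FPKM in Vector and at 7.35, 8.44 and 8.24 FPKM with EGR1 (1.14, limma adjusted p = 2.6e-04, corrected 1.18), and 3 of 8 were higher and 0 lower in MHCC97H (3 and 1 at an unadjusted limma p under 0.05, 2 and 2 by adjusted p after the correction).

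Between the control libraries, where 38.8% of all genes were higher in Mock and 40.9% lower, 18 of 20 other proteases and inhibitors tested were higher and 1 lower (16 and 2 after the correction). MMP7, a small metalloproteinase called matrilysin, was at 1.41, 1.78 and 1.62 FPKM in Vector and at 195, 186 and 196 FPKM in Mock (6.21, limma adjusted p = 2.3e-10). Of 11 other matrix proteins 8 were higher in Mock and 3 lower, among them vitronectin (VTN), a plasma protein of hepatocytes, at 358, 357 and 341 FPKM in Vector and at 0.694, 0.51 and 0.373 FPKM in Mock (-7.86, limma adjusted p = 1.5e-10). VTN passed the filter through Vector alone, which fixed its direction. Of the largest called changes of these lists, LAMA4, FBN1, LOXL1 and PLAU passed through Mock alone. GPC3, LOXL4 and TNS1 passed through Vector alone, so their directions were fixed likewise. The counts of this paragraph are thus in part set by the filter. Of the collagen-modifying enzymes 5 of 17 were higher and 10 lower (5 and 8 corrected), of the integrin adaptors 10 of 18 were higher and 7 lower (9 and 7 corrected), and of the surface proteoglycans and receptors 1 of 9 was higher and 5 lower (4 and 5 corrected).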

How the data were processed

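RNA of PLC/PRF5 and MHCC97H cells, 3 libraries in each of 4 groups, was purified with oligo(dT) beads, treated with duplex-specific nuclease and sequenced by Illumina NovaSeq. The authors deposited FPKM for 22963 gene names, of which 3031 are assembled loci. The submitters' processing notes name StringTie and hg38, and the aligner, annotation and strand setting are not given in the sources used here. The depth is unknown, so no counting error or detection limit is given.

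Groups were taken from the labels. FPKM was transformed to log2(FPKM + 1), and each comparison (EGR1 against Vector, EGR1_KO against Mock, Mock against Vector) was fitted alone with limma 3.58.1 in R 4.3.3, with an intensity trend and no covariate, over those genes whose mean FPKM was at least 1. Tests were 2-sided with Benjamini-Hochberg adjustment over all genes tested, and the threshold was 0.05. For the GC and length correction, a natural spline with 5 degrees of freedom on each was removed, using the longest protein-coding transcript of GENCODE release 29 (GRCh38), which all 42 genes and 92.8% to 93.3% of genes tested matched. Promoter sequences are those of RefSeq.

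The genes and lists were chosen with earlier results of these data known. Genes named with their value in every library had a difference of at least 1 or were among the 3 largest called of their role, plus the highest of each role, and further genes were named after their values were seen. From the other lists at most the 3 largest called in a comparison are named. The values of a gene counted in these lists are not reported here. In simulated data 89.0%, 92.0% and 92.5% of 200 genes changed by 1 were recovered in the 3 comparisons. The noise was normal with the spread of each gene, and the 200 were drawn from genes with a higher mean than the filter asks for. These shares therefore do not cover genes near the filter or smaller changes. Alternatives were another pseudocount, filter, scaling, fit, threshold and replicate block, the correction, and leaving out each library. Plots were drawn with matplotlib 3.10.9.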

Additional observations from a re-analysis of the deposited data

How the results depend on the processing

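The counts of genes called in each direction stayed within 1.5 times of those reported under 97 of 102 alternative counts. The exceptions came from asking as well for a difference of at least 1 on the log2(FPKM + 1) scale. This left 1 gene higher and 0 lower in PLC/PRF5, 4 higher and 1 lower in MHCC97H, and 5 lower in the control lines. Such a difference is more than a 2-fold ratio of FPKM. It left out called genes with a ratio of means beyond 2-fold, namely CD44 (3.08), THBS1 (2.83) and NID1 (0.468) in PLC/PRF5 and MMP14 (2.07) in MHCC97H. On leaving out single libraries, 6 to 7 genes were higher and 10 to 16 lower in PLC/PRF5, 15 to 16 higher and 9 to 10 lower in MHCC97H, and 18 to 20 higher and 11 to 12 lower in the control lines. The 10 lower genes in PLC/PRF5, against 15, came without Vector replicate 3 or EGR1 replicate 2.

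Of 1485 differences of single genes under an alternative, 1362 kept their direction and side of the threshold, 70 lost a call, 22 gained one and 31 turned direction. Of those that turned, only TIMP1, ITGA2 and TIMP2 in MHCC97H had been called. With the GC and length correction, alone or with the replicate block, TIMP1 (-0.10), HSPG2 (-0.17), ITGA2 (0.041) and LAMC1 (0.044) turned in MHCC97H, and LAMA5 (0.039) and LAMC1 (-0.18) in the control lines. Quantile normalization turned ITGA3 in PLC/PRF5 (-0.061), SPP1 (-0.086), ITGB1 (-0.22) and TIMP2 (-0.0072) in MHCC97H, and LAMA5 (0.097) and LAMB1 (0.063) in the control lines. Scaling to a common total turned ITGB1 in MHCC97H (-0.11) and LAMA5 in the control lines (0.080). Leaving out single libraries turned ITGA3 (-0.011 to 0.16) and ITGB1 (-0.12 to 0.044) in PLC/PRF5, LAMC1 (-0.12 to 0.017) and ITGB1 (-0.025 to 0.10) in MHCC97H, and LAMA5 (-0.17 to 0.056) and LAMC1 (-0.17 to 0.099) in the control lines. Testing every gene above 0 ended the calls of GPC1, HSPG2, LAMA3 and VCAN in PLC/PRF5 and of HSPG2 and NID1 in the control lines, and quantile normalization that of ITGB4 in the control lines. The cause was not tested.

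The labels number the replicates 1 to 3 in each group, but same-numbered libraries did not deviate together in every pair. The correlation of their deviations across genes was -0.13, 0.14 and -0.076 in PLC/PRF5, 0.032, 0.030 and 0.47 in MHCC97H, and -0.39, -0.0082 and -0.053 in the control lines, where differently numbered libraries reached 0.21, 0.38 and 0.40. With the replicate number as a block, 8 genes were higher and 13 lower in PLC/PRF5, 16 and 10 in MHCC97H, and 18 and 12 in the control lines, and with the correction as well 8 and 16, 15 and 12, and 20 and 12. The block without the correction ended the calls of GPC1 and ITGA6 in PLC/PRF5 (limma adjusted p of 0.068 and 0.073) and of COL18A1 and NID1 in the control lines (adjusted p of 0.066 and 0.082). With 3 libraries in a group and an unknown depth, small differences of genes near 1 FPKM are the least certain values here.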
